A study of Mus musculus with 2 samples.

Results

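The 37 genes described here encode the proteins that copy chromosomal DNA: the Mcm2 to Mcm7 helicase and its partners, the proteins that recognize and license origins, the polymerases and primase, the sliding clamp and its loader, the single-strand binding and strand-joining proteins, the enzymes of nucleotide supply, and Uhrf1. They form a list of gene names drawn up by function, with earlier results of these data known, and each is represented by its listed transcript with the most windows. All 37 were found in the table, among 22605 genes in all. M1 cells are a mouse line of myeloid leukemia origin, kept as progenitors in culture, that take on macrophage features under the cytokine IL-6. DNase I hypersensitivity was measured by sequencing (DHS-seq) in untreated M1 cells and in M1 cells grown with IL-6 for 4 to 5 days, with 1 library each, both at passages 15 to 18 and in the same horse serum medium. In this assay nuclei are cut lightly with DNase I, which reaches open chromatin first, and the short fragments between a pair of cuts are sequenced. The comparison asks how open chromatin over these genes differed between the library of growing progenitors and the library of IL-6-treated cells, and with 1 library per condition no difference below has a replicate check.

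In a dividing cell, origins are marked by the origin recognition complex and are licensed when Cdc6 and Cdt1 help to load the ring-shaped Mcm helicase. GINS and Mcm10 take part in switching the helicase on. Primase and polymerase alpha then lay down short primers, polymerases delta and epsilon extend them while held by the Pcna ring, RPA covers the exposed single strands, and Fen1 and Lig1 finish and join the lagging-strand pieces. Many of these genes are classical targets of E2F transcription factors, which turn them on as cells enter S phase, and they are commonly turned down as myeloid progenitors stop dividing.

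The values are reads per window. The deposited table gives, for each transcript, the mean and the SD over the 700-bp windows touched by its coding span, the stretch from start codon to stop codon, on build NCBIM37 (mm9). Multiplying the mean by the number of windows gives back whole reads, with 1 IL-6 read worth 1.03816 in the table, and "scaled" below means after this factor. Non-overlapping coding spans held 9102320 untreated reads and 8544903 IL-6 reads over 1200277 windows, which is 7.58 and 7.12 reads per window. Ratios are IL-6 over untreated on the scale of the table, with exact 95% Clopper-Pearson intervals for counting error alone, so they compare 2 libraries and not the conditions. The scale decides the direction of most of them. When the libraries were instead set equal over 544 single windows that held more than 21 reads in both, a scaling added after the data were seen and called the strong-window scaling below, every log2 ratio moved up by 1.83. DNase I signal is not expression, so marker genes only describe spans here. The median untreated mean was 14.6 reads per window over 8 myeloid progenitor genes, 18.4 over 2 genes of all blood cells, 8.79 over 8 macrophage genes, 6.95 over 3 T cell genes, 8.71 over 3 B cell genes, 4.83 over 3 erythroid genes and 5.88 over 3 fibroblast genes, and no marker span was at 0. Marker spans moved too: on the scale of the table the median log2 ratio was -0.67 for the progenitor, -0.84 for the blood, -0.62 for the erythroid and -0.14 for the macrophage genes, all positive under the strong-window scaling, and 0.32 for the T cell, 0.39 for the B cell and 0.40 for the fibroblast genes. The part of this shift in the ratios of the replication genes was not tested.

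Promoter sequences are shown first because their letters could be compared with other promoters without using the DNase I values. Also, in 10 of 18 spans with a located strong part, that part held the start site, as described below. Some of these parts are long, such as 39 of 41 windows in Mcm6, and the spans of Mcm5, Gins1, Rpa3 and Pcna could not be split. The 200 bases before the annotated start site (GENCODE M1) are printed 5′ to 3′ along the gene. The first 5 hold E2F-type letters before the start, and the last 3 belong to genes with the highest shares of untreated reads in 1 window. Capitals mark the E2F-type letters TTTGGCGC, TTTCCCGC, TTTGCCGC and TTTCGCGC and the NF-Y letters CCAAT, each also as its reverse complement. On NCBIM37 these are Mcm6 at chr1:130256234-130256433 (minus strand), Mcm7 at chr5:138613047-138613246 (minus strand), Mcm5 at chr8:77633323-77633522 (plus strand), Cdc6 at chr11:98769265-98769464 (plus strand), Gins1 at chr2:150735130-150735329 (plus strand), Orc6 at chr8:87823331-87823530 (plus strand), Rpa3 at chr6:8209174-8209373 (minus strand) and Pcna at chr2:132078917-132079116 (minus strand).
Mcm6: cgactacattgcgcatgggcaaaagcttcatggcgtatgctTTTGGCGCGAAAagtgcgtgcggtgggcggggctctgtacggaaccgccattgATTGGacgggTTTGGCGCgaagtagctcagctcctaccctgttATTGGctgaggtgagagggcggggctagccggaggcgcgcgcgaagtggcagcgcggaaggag
Mcm7: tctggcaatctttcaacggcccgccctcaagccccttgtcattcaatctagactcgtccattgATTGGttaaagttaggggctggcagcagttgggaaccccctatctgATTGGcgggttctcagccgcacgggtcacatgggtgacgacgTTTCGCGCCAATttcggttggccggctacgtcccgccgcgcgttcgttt
Mcm5: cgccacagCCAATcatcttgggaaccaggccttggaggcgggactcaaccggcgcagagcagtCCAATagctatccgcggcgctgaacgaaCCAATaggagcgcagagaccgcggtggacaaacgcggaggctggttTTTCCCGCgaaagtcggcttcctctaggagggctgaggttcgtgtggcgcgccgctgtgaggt
Cdc6: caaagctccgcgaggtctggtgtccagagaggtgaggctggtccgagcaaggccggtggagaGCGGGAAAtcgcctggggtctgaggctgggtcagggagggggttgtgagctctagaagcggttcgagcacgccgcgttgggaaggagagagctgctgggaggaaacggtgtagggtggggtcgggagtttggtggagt
Gins1: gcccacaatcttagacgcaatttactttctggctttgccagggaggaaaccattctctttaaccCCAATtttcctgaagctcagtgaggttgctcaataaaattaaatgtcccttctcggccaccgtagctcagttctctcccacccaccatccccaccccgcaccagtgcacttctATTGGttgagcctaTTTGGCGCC
Orc6: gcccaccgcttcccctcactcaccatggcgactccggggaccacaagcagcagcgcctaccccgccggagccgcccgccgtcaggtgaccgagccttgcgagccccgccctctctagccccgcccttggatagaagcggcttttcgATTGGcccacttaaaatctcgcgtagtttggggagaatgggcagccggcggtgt
Rpa3: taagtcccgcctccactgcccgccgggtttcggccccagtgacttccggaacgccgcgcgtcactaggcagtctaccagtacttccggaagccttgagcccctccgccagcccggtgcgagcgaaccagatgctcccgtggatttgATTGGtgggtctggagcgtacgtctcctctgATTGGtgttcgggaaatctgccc
Pcna: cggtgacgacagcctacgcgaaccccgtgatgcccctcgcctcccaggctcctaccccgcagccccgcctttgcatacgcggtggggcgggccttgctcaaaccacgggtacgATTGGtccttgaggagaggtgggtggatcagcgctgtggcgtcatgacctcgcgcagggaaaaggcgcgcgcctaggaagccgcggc

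In a window of 300 bases, from 250 before to 50 after the start site, 13 of 37 replication genes held at least 1 of the 4 E2F-type words on either strand. This is 35.1% (95% Clopper-Pearson interval 20.2% to 52.5%), against 3.24% of the promoters of 17144 genes tested. With only the 250 bases before the start the share was 24.3% (11.8% to 41.2%), against 2.65%. NF-Y letters were in 67.6% of the replication promoters and 36.3% of all, while the Sp1 letters GGGCGG were in 62.2% and 52.8%. Mcm6 held 3 E2F-type matches, at positions -159, -155 and -96 with the start site as position 0, and the first 2 overlap in the run TTTGGCGCGAAA. Mcm7 held matches at -230, outside the printed stretch, and at -49, where the word runs into the letters CCAAT. Mcm3, Mcm4, Gins1 and Rfc3 also held 2 matches, and Mcm5, Cdc6, Cdt1, Pola1, Pole, Pole2 and Uhrf1 held 1. No match was found for Orc6, Rpa3 or Pcna in this window, which says only that these exact letters are not in it. The median log2 ratio was -0.77 in the 13 replication genes with the letters and -0.82 in the 24 without, with 4 and 10 genes at least 2-fold lower, and both medians turn positive under the strong-window scaling. Over all genes tested the order was the other way, with a median of -0.24 in 556 genes with the letters, 115 of them at least 2-fold lower, and 0.02 in 16588 without, 2217 of them at least 2-fold lower.

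In untreated M1 cells the replication genes carried strong signal. Their median was 18.2 reads per window, against 9.33 over the 18472 genes tested, those above 21 reads in at least 1 library, and 30 of 37 were above that all-gene median. All 37 had more than 21 reads in both libraries, the lowest being Fen1 with 41 and 31 reads. In IL-6-treated cells the median was 10.7 reads per window, against 9.27 over all genes, so on the scale of the table the excess over other genes was smaller in the IL-6 library. Summed over the 37 genes, 19556 untreated reads stood against 11990 IL-6 reads, a ratio of 0.637 (0.622 to 0.651), or -0.65 in log2, which turns to 1.17 under the strong-window scaling.

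By gene, 14 of 37 were at least 2-fold lower in the IL-6 library on the scale of the table, against 13.4% of all genes tested, and under the strong-window scaling 0 were, against 0.0767%. None was at least 2-fold higher (1.71% of all genes). Under the strong-window scaling 20 were, a smaller share than the 84.8% of all genes on that scale. A lower value of any size was seen in 33 genes (48.3% of all genes), of which 3 (Mcm7, Rpa3 and Orc6) stayed lower under the strong-window scaling. The interval of the ratio lay below 1 in 27 (34.4% of all genes) and above 1 in 2, Pola1 and Prim2 (29.0% of all genes). The median log2 ratio was -0.78, against 0.03 for all genes tested, and the strong-window scaling turns it to 1.04 and that of all genes to 1.89, so the replication genes lay below all genes on both scales.

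**Figure D1:**
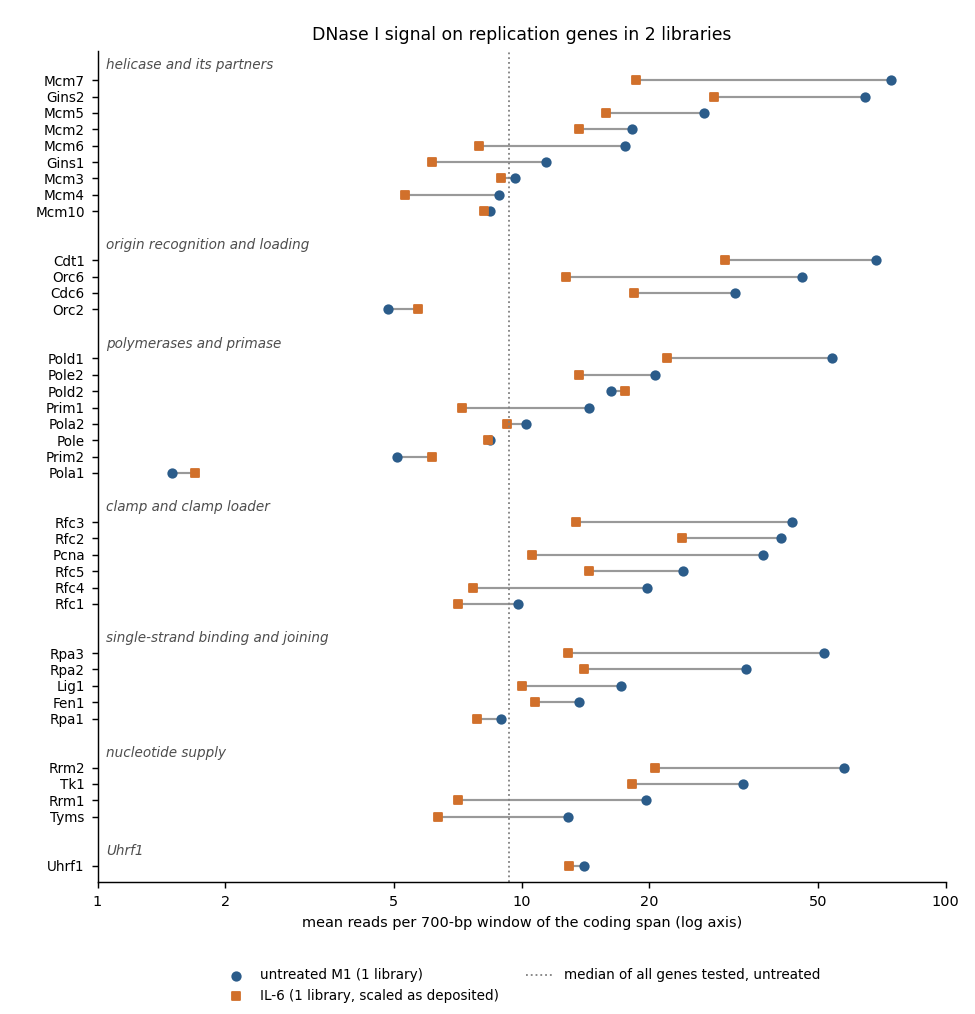
Mean reads per 700-bp window of each coding span (log axis) for the 37 replication genes, grouped by role, with a circle for the untreated library and a square for the IL-6 library on the scale of the table (1 library each, so no error bars). The square lies left of the circle for 33 genes and right of it for Pola1, Pold2, Prim2 and Orc2, an order that reverses for 30 of the 33 under the strong-window scaling, and the dotted line is the untreated median of all genes tested at 9.33.

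The Mcm2 to Mcm7 genes encode the 6 subunits of the replicative helicase, which unwinds DNA ahead of the fork. Together their spans held 3025 untreated and 1495 IL-6 reads, a ratio of 0.513 (0.482 to 0.546) that passes 1 under the strong-window scaling. Mcm7 had 74.3 reads per window in untreated cells and 18.6 after IL-6, from 817 and 197 reads on 11 windows, a ratio of 0.250 (0.213 to 0.293). This value depends on the transcript: the log2 ratio was -2.00 on the span with the most windows and -1.14 as the median over all listed Mcm7 transcripts, near that of Mcm6. Mcm6 had 17.5 and 7.93 reads per window (ratio 0.453, 0.396 to 0.518). Mcm5 had 26.9 and 15.8 (0.587, 0.518 to 0.665). Mcm4 had 8.83 and 5.31 (0.601, 0.460 to 0.781). These 4 subunits had intervals that lay well below 1 on this scale. Mcm2 was nearer, with 18.2 and 13.7 reads per window (0.751, 0.643 to 0.875). Mcm3 had 9.63 and 8.95, and its interval of 0.767 to 1.13 holds 1. The 6 subunits, which work in 1 ring, therefore ranged from a ratio of 0.250 to 0.930 on their longest listed spans, and there the intervals of Mcm7 and Mcm6 did not overlap that of Mcm2 or Mcm3.

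The helicase partners differed in the same way. Gins1 and Gins2 are subunits of GINS, which joins the Mcm ring to form the active helicase. Gins2 had 64.5 and 28.4 reads per window (ratio 0.441, 0.384 to 0.505), and Gins1 had 11.4 and 6.16 (0.540, 0.449 to 0.647). Mcm10, which acts as the helicase is activated, had 8.41 and 8.16 (0.970, 0.806 to 1.17), so its difference is within counting error. Over these 9 helicase genes the median log2 ratio was -0.77, which turns positive under the strong-window scaling. Of the 9, 3 (33.3%) were at least 2-fold lower on the scale of the table, against 13.4% of all genes tested.

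Of the 4 origin genes, 3 had strong spans in untreated cells. Cdt1, the licensing factor that brings the Mcm ring to origins, had 68.6 reads per window in untreated and 30.1 in IL-6-treated cells (ratio 0.439, 0.375 to 0.512). Cdc6, its partner in loading, had 31.8 and 18.4 (0.578, 0.505 to 0.662). Orc6, the smallest origin recognition subunit, had 45.8 and 12.7 (0.278, 0.230 to 0.334), a log2 ratio of -1.84 that becomes -0.02 under the strong-window scaling and -1.17 as the median over all listed Orc6 transcripts. Orc2, another subunit of that complex, went the other way with 4.85 and 5.69 reads per window (1.17, 0.990 to 1.39), an interval that just holds 1. Its annotated start site lies 3693 bp from the coding start and outside the windows, and 25 of its 54 windows also belong to Nif3l1.

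The polymerase and primase genes had the median nearest to 0 of the 6 groups with several genes, a log2 ratio of -0.08. This median turns positive under the strong-window scaling. Of these 8 genes, 1 (12.5%) was at least 2-fold lower on the scale of the table, against 13.4% of all genes tested. That one was Pold1, the catalytic subunit of polymerase delta, with 53.8 and 22.1 reads per window (ratio 0.410, 0.361 to 0.465). Prim1, the catalytic primase subunit, had 14.4 and 7.22 (0.501, 0.410 to 0.610), just short of 2-fold. Pole2, an accessory subunit of polymerase epsilon, had 20.6 and 13.7 (0.664, 0.593 to 0.742). The other 5 genes had values that were close together or higher after IL-6. Pola2, the second subunit of polymerase alpha, had 10.2 and 9.25 (0.904, 0.772 to 1.06), and Pole, the catalytic subunit of polymerase epsilon, had 8.42 and 8.32 (0.988, 0.882 to 1.11). Pold2, an accessory subunit of polymerase delta, had 16.3 and 17.5 (1.07, 0.824 to 1.40). Prim2, the larger primase subunit, had 5.09 and 6.13 reads per window over 308 windows (1.21, 1.13 to 1.29), and Pola1, the catalytic subunit of polymerase alpha, had 1.501 and 1.701 over 467 windows (1.13, 1.02 to 1.26). Prim2 and Pola1 are by far the longest of the 37 spans, and Pola1, on the X chromosome, had the lowest mean.

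The clamp and its loader were lower in all 6 genes, with a median log2 ratio of -1.06 that turns positive under the strong-window scaling. Pcna encodes the ring that holds polymerases on DNA, and its 5 windows held 185 and 51 reads, a ratio of 0.286 (0.206 to 0.392). The loader subunits Rfc1 to Rfc5 open and close that ring, and together they had a ratio of 0.559 (0.527 to 0.593), which also passes 1 under the strong-window scaling. Rfc3 had 43.4 and 13.4 reads per window (0.309, 0.259 to 0.368). Rfc4 had 19.7 and 7.68 (0.390, 0.321 to 0.472). Rfc2 had 40.9 and 23.9 (0.585, 0.525 to 0.652) and Rfc5 24.1 and 14.4 (0.598, 0.498 to 0.715). The largest subunit, Rfc1, was nearest to 1 with 9.80 and 7.08 (0.722, 0.656 to 0.795), and its interval overlapped that of Rfc5 but not those of Rfc2, Rfc3 and Rfc4.

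RPA is a trimer that coats single-stranded DNA, and its 3 genes differed widely. Rpa3, the smallest subunit, had 51.6 and 12.9 reads per window on 5 windows, from 258 and 62 reads, a ratio of 0.249 (0.186 to 0.330). Rpa2 had 33.7 and 14.0 (0.416, 0.352 to 0.491), at least 2-fold lower on this span but not as the median over all its listed transcripts (log2 ratio -0.74), and Rpa1, the large subunit, 8.96 and 7.86 (0.878, 0.779 to 0.989). The 3 intervals on these spans did not overlap one another. Lig1, the ligase that seals Okazaki fragments, had 17.2 and 10.0 (0.581, 0.516 to 0.654). Its log2 ratio was -0.78 on this span but -0.34 as the median over all its listed transcripts. Fen1, the flap nuclease acting before it, has a coding span of only 3 windows, 2816 bp from its start site, and had 13.7 and 10.7 (0.785, 0.476 to 1.28).

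Nucleotide supply was the group with the lowest median, a log2 ratio of -1.24 over 4 genes, which turns positive under the strong-window scaling. Rrm1 and Rrm2 encode the large and small subunits of ribonucleotide reductase, which makes deoxyribonucleotides. Rrm1 had 19.6 and 7.08 reads per window (0.361, 0.313 to 0.416) and Rrm2 had 57.6 and 20.6 (0.358, 0.293 to 0.435), so the 2 subunits had like ratios although the spans have 39 and 7 windows. Tyms, thymidylate synthase, had 12.8 and 6.34 (0.494, 0.392 to 0.618), and Tk1, the S phase thymidine kinase, 33.2 and 18.2 (0.548, 0.470 to 0.638). Uhrf1, which recruits the maintenance DNA methyltransferase to newly copied DNA, had 14.0 and 12.96 (0.925, 0.792 to 1.08), within counting error.

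The way reads were spread along the spans does not depend on the scale between the libraries. The coefficient of variation (CV), the SD between windows over their mean, had a median of 1.64 over the replication genes in untreated cells and 0.768 after IL-6. Over all genes tested these medians were 0.945 and 0.700. The CV was lower after IL-6 in 34 of 37 replication genes, against 82.9% of all genes, and the median ratio of the 2 CVs was 0.530, against 0.737. Uneven spans in general were close to this. With an untreated CV over 1, the median ratio was 0.484 over 27 replication genes and 0.534 over 8482 genes tested. It was lower in all 27 and in 97.5% of those genes tested. Higher CVs after IL-6 were seen in Pold2, Uhrf1 and Orc2, whose untreated CVs were 0.361, 0.379 and 0.737. At the other end, Rrm1 had 4.26 and 2.01, Mcm6 3.60 and 1.27, and Lig1 3.31 and 1.23. The replication spans thus had a higher median unevenness than all genes in untreated cells and lay nearer to all genes in the IL-6 library. A CV also carries counting noise, which is larger at fewer reads per window, and that part was not removed.

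The mean and SD of a span also set bounds on its strongest window. For the 37 genes these bounds were narrowed where parts of the span could be separated, as described below. Rpa3 is solved exactly: 1 window held 232 of 258 reads in untreated cells, 89.9% (95% interval 85.6% to 93.3%), and 51 of 62 after IL-6, 82.3% (70.5% to 90.8%). In Orc6 the strongest window held 437 to 438 of 549 reads in untreated cells, 79.6% to 79.8%, and 77 to 80 of 147 after IL-6, 52.4% to 54.4%. In Pcna it held 153 to 155 of 185 reads and then 28 to 35 of 51. Gins2, Tyms and Pold1 had wider shifts than these 3. Gins2 had 71.5% to 72.2% of its reads in 1 window before and 26.6% to 35.9% after. Tyms had 66.0% to 67.6% before and 14.7% to 23.3% after, and Pold1 had 60.0% to 68.4% before and 10.9% to 23.2% after. Over the 37 genes the possible range of this share was wholly lower after IL-6 in 18, wholly higher in 0, and overlapping in 19. Of all 18472 genes tested, 18.3% were wholly lower, 573 genes wholly higher and 14522 overlapping. With an untreated CV over 1, the range was wholly lower in 17 of 27 replication genes and in 30.8% of 8482 genes tested. Only the ranges of the replication genes had been narrowed by separated parts. Narrower ranges come apart more easily, so these shares are not strictly comparable. In untreated cells 19 genes had a strongest window of over 100 reads for certain, and in IL-6-treated cells only 1, Gins2, could have had that. Unlike the shares, this count depends on the scale. Under the strong-window scaling 1 IL-6 read is worth 3.68, and more genes would pass 100, Orc6 with its 77 to 80 reads among them. The share of all genes past 100 is not at hand.

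**Figure D2:**
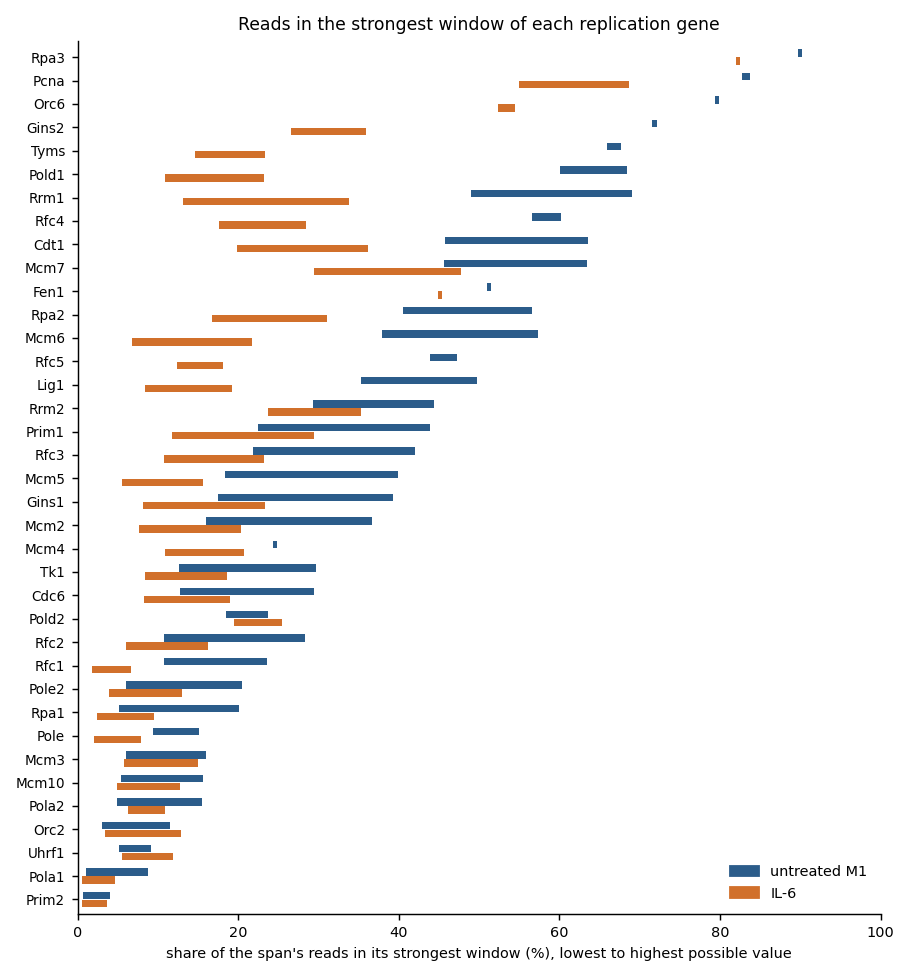
Share of each coding span's reads that lay in its strongest 700-bp window, in percent, for the 37 replication genes in the untreated (upper bar) and the IL-6 library (lower bar). Each bar runs from the lowest to the highest share that the listed means and SDs allow, narrowed where parts of the span could be separated. Very narrow ranges are drawn 0.5 wide. The bars are apart in 18 genes, with the IL-6 bar to the left in all of these, and overlap in 19.

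Where several transcripts of a gene, or of a neighbor, end at different windows, the differences between their values isolate stretches of the span. Prim2 and Uhrf1 were split in this way, but the bounds do not tell which part held the strongest untreated window. Both genes were left out of the sums and counts of this paragraph. Both parts of Prim2 had intervals above 1 on the scale of the table. In Uhrf1 the interval lay below 1 in the part nearer to the start site and held 1 in the other. A further 18 of the 37 spans were resolved into at least 2 parts, with the strongest untreated window placed in 1 of them. Taking in each the part that holds the strongest untreated window, these parts held 7375 untreated and 2863 IL-6 reads over 237 windows, a ratio of 0.403 (0.386 to 0.421). The other 236 windows of the same spans held 1882 and 1875 reads, a ratio of 1.03 (0.970 to 1.10). The strong parts were chosen on the untreated reads, which by itself favors a lower second value, so these sums are a description. The 2 intervals of a gene were apart in 13 of the 18, and the gap between the 2 parts of a span does not depend on the scale, although under the strong-window scaling both sums have a ratio above 1. In 17 of 18 the interval of the weaker part held 1 on the scale of the table, and in Pole it lay above 1. Several weaker parts held few reads, such as 9 and 8 in Fen1 (0.310 to 2.69) and 13 and 19 in Pola2 (0.711 to 3.34). An interval that wide holds 1 easily, so this count does not show that the signal there was unchanged. No share over all genes is at hand for the counts of this paragraph.

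Orc6 shows the pattern over a short distance. Its 4 windows from 0.13 kb before to 2.67 kb after the start site held 484 and 103 reads, 121.0 and 26.7 per window, while the next 8 windows held 65 and 44 reads, 8.13 and 5.71 per window. In Gins2 the 5 windows next to the start site held 593 and 177 reads and the 6 windows beyond held 116 and 124. In Rfc5 the first 4 windows held 218 and 72 reads and the other 10 held 119 and 122. Rfc4, Tyms and Rrm2 had the same order. Rfc4 held 310 and 79 reads in 9 windows at the start site and 84 and 69 in 11 others. Tyms held 204 and 59 in 8 and 40 and 57 in 11. Rrm2 held 383 and 109 in 5 and 20 and 30 in 2. Pole is the case where the whole span hides the difference: its ratio of 0.988 combines 193 and 73 reads in the 8 windows at the start site (0.393, 0.296 to 0.517) with 430 and 520 reads in the 66 windows beyond (1.26, 1.10 to 1.43). Mcm4 had 64 and 18 reads in the 2 windows next to its start site and 95 and 74 in the other 16.

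Lig1 and Pold1 had their strong part elsewhere. In Lig1 the 19 windows from 12.9 to 26.2 kb downstream of the start site held 607 and 247 reads, and the other 27 windows, including the 17 nearest to the start, held 184 and 196. In Pold1 the 12 windows from 7.02 to 15.4 kb downstream of the annotated start site held 808 and 297 reads, with 517 to 589 of the untreated reads in a single window, and the other 4 held 53 and 43. GENCODE M1 places start sites inside both stretches only for retained-intron transcripts of the same gene. When parts were picked by position alone, the stretch nearest to the start site had a ratio of 0.462 (0.439 to 0.486) summed over 17 genes and the rest of those spans 0.766 (0.727 to 0.808), both above 1 under the strong-window scaling. The end stretch was the lower part with intervals apart in 9 genes, and the rest was the lower part in 2, Lig1 and Pold1.

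**Figure D3:**
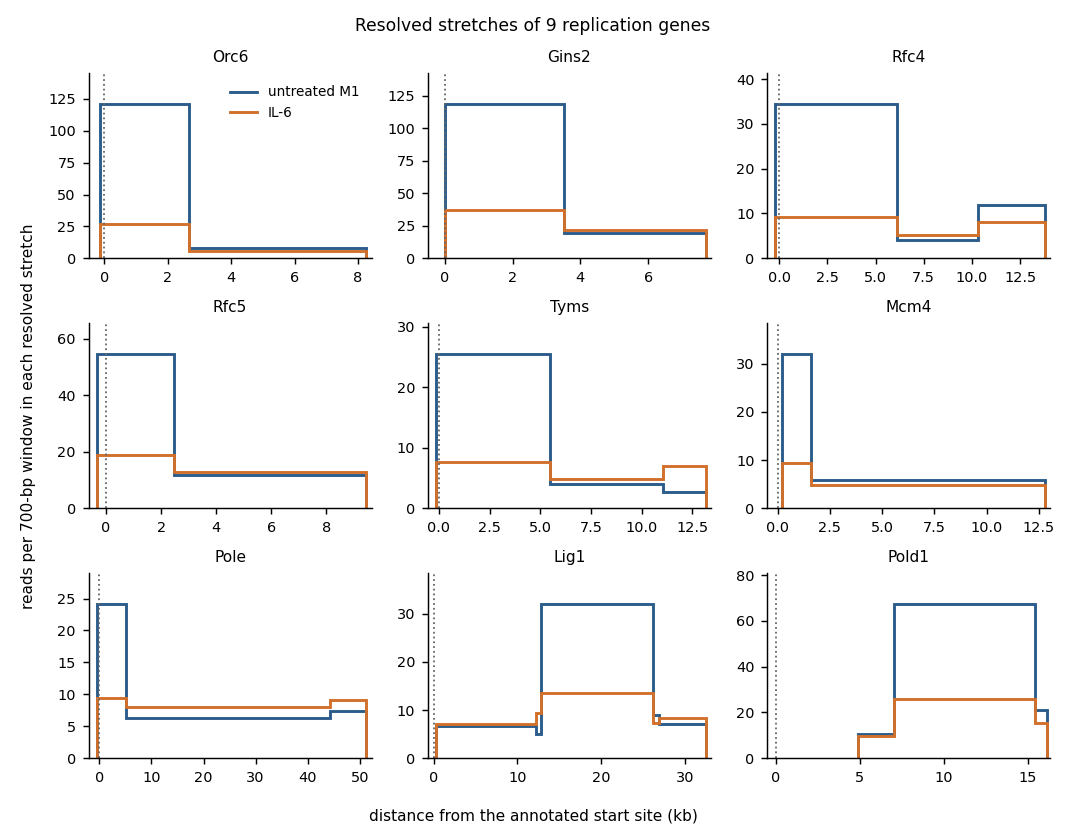
Reads per 700-bp window in each resolved stretch of 9 replication genes against the distance from the annotated start site in kb (dotted line at 0), in the untreated and the IL-6 library on the scale of the table, 1 library each. The strong stretch is at the start site in Orc6, Gins2, Rfc4, Rfc5, Tyms, Mcm4 and Pole and downstream in Lig1 and Pold1. On this scale the 2 lines are far apart in the strong stretch and nearer in most others, though a Tyms stretch of 3 windows held 8 and 20 reads. How near the lines lie depends on the scale. Only the difference between the log ratios of stretches does not.

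Whether a span reached the start site went with its ratio. In rank order the distance from start site to coding start did so only weakly, with a Spearman correlation of 0.16 across the 37 genes. Split at 400 bp, however, the median log2 ratio was -0.89 in 29 genes up to this distance and -0.08 in 8 beyond it. At least 2-fold lower were 13 and 1 of these, against 18.2% and 4.96% of all genes split in the same way. Over all genes the medians were -0.14 and 0.17, and all 4 medians are positive under the strong-window scaling. The annotated start site lay inside the windows of 22 replication genes and outside those of 15, a split made after the data were seen. The median log2 ratio was -0.94 in the 22 and -0.19 in the 15, and both turn positive under the strong-window scaling. Over all genes tested the medians were -0.17 for 9504 genes with the start site inside and 0.14 for 7640 with it outside. At least 2-fold lower were 10 of the 22, against 19.7% of all genes with the start site inside, and 4 of the 15, against 6.06% of all genes with it outside. Those 4 were Gins2, Pcna, Pold1 and Rrm2, and the first windows of Gins2, Pcna and Rrm2 begin 0.004, 0.116 and 0.095 kb from the start site. Across the 37 genes the untreated CV and the log2 ratio had a Spearman correlation of -0.63, and across 18318 genes it was -0.50. Genes are not independent replicates, both measures use the same untreated library, and this is a description.

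**Figure D4:**
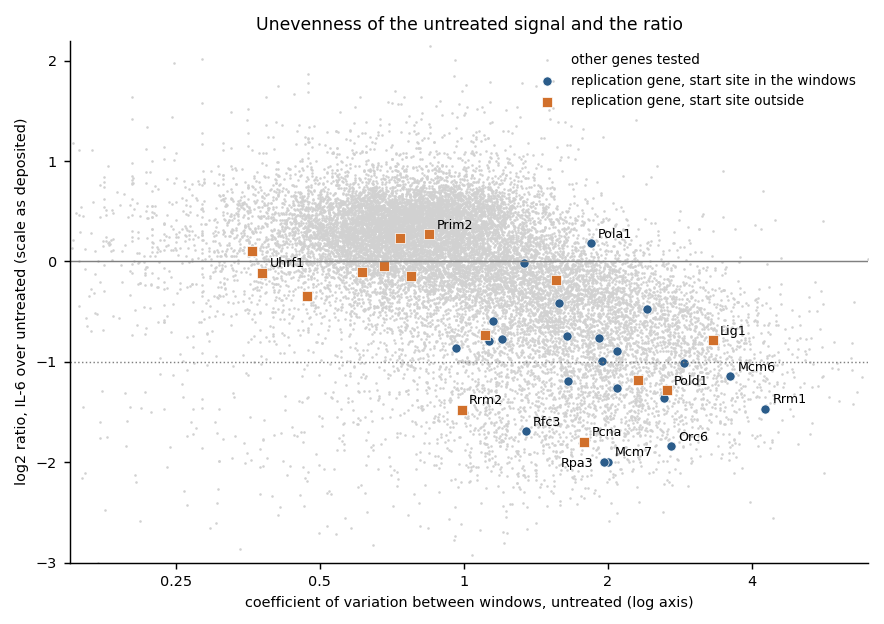
Coefficient of variation between the windows of a span in untreated cells (log axis) against the log2 ratio of IL-6 over untreated reads on the scale of the table, for the replication genes with the annotated start site inside (circles, 22) or outside (squares, 15) the windows and for the other genes tested (gray). The very uneven spans of Rrm1 and Mcm6 lie below the dotted line of a 2-fold lower value, that of Lig1 (CV 3.31) above it, Rrm2 (CV 0.990) below it, and the even spans of Uhrf1 and Prim2 near 0, and the strong-window scaling would move every point up by 1.83. Points beyond the axes are not drawn.

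Each replication gene was also compared with genes whose untreated mean and number of windows were within 25% of its own. Of the 37, 25 had a ratio below the median of such genes, against 52.0% of all genes tested, and their median percentile was 39.2. This placing does not change with the scale. Under the 20th percentile were 16 genes, against 20.7% of all genes, and over the 80th were 3, Cdt1, Rfc2 and Gins2, against 18.0%. These 2 limits were chosen after the values were seen. Lowest was Rrm1, at the 0.485 percentile of 412 similar genes, whose median log2 ratio was -0.46 against -1.47 for Rrm1. Next came Orc6 at the 3.54, Mcm4 at the 5.05, Mcm6 at the 5.92, Mcm7 at the 6.02 and Tyms at the 6.30 percentile. Clamp and loader genes were also low, with Rfc4 at the 6.83, Rfc3 at the 9.57, Pcna at the 10.7 and Rfc1 at the 12.3 percentile, but Rfc5 was at the 53.0 and Rfc2 at the 87.6. In nucleotide supply, Rrm2 was at the 57.4 and Tk1 at the 69.5 percentile, unlike Rrm1 and Tyms. The low ratio of Cdt1, 0.439, was above the middle of its 146 similar genes, at the 87.7 percentile, since their median log2 ratio was -1.57. Pola1, with a ratio above 1, was at the 8.70 percentile of 23 similar long spans. Thus a low ratio and a low place among similar genes were not the same set.

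**Figure D5:**
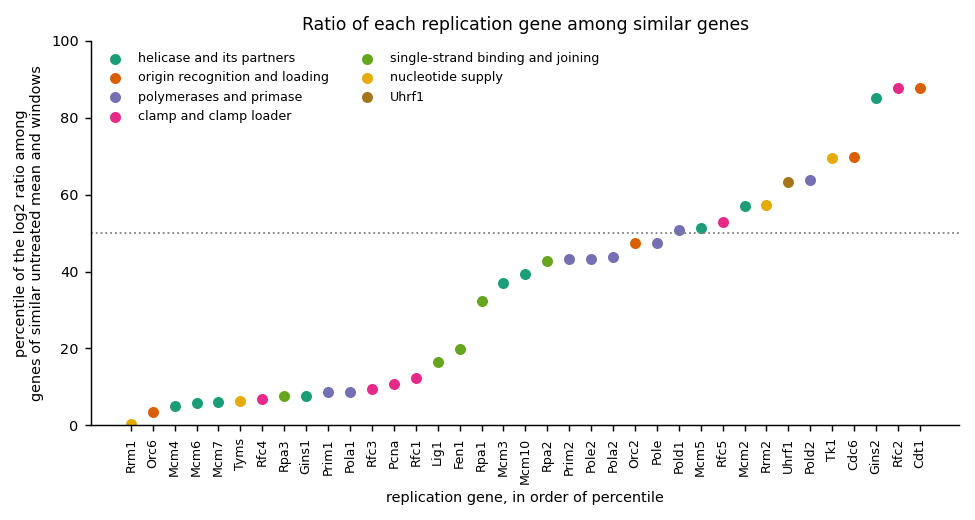
Percentile of each replication gene's log2 ratio among genes with an untreated mean and a number of windows within 25% of its own, colored by role and in rising order, with a dotted line at the median. The percentiles run from 0.485 for Rrm1 to 87.7 for Cdt1, 25 of 37 are below the line, and the placing is the same under every scaling of the libraries that was tried.

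The wider replication machinery was described from a list of 49 further genes, of which 48 were in the table and 47 passed the filter. Their median log2 ratio was -0.56, which turns to 1.27 under the strong-window scaling. At least 2-fold lower on the scale of the table were 10 of 47, against 13.4% of all genes tested, and 0 were 2-fold higher, against 1.71%. Below the median of similar genes were 36 of 47, against 52.0%. The 3 lowest were Dut, the dUTPase that keeps uracil out of DNA, with 546 and 146 reads (log2 ratio -1.85), Slbp, the histone mRNA stem-loop binding protein, with 1005 and 270 reads (-1.84), and Rnaseh2c, a subunit of the nuclease that removes ribonucleotides from DNA, with 233 and 65 reads (-1.78). All 3 reach about 0 or just above or below it under the strong-window scaling. The 3 highest were Mcm8, an Mcm relative outside the main ring, with 214 and 268 reads (0.38), Gmnn, the inhibitor of Cdt1, with 76 and 78 reads (0.09), and Chaf1b, a histone chaperone subunit, with 264 and 270 reads (0.09). The start sites of these last 3 lie 957, 1651 and 572 bp from their coding starts and outside the windows.

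Some of the reads counted here belong to windows that other genes share. Gm20388, a transcript model of 6334 windows, covers all windows of Cdt1 and Gins2. A single window is shared by Pole with Pxmp2 and by Tk1 with Afmid, and 3 windows of Tyms with Gm17448. For 10 replication genes the start site lay within 1000 bp of that of a gene on the opposite strand, and these neighbors ranged from a log2 ratio of -1.81 to 0.27 on the scale of the table. Ap4m1, 184 bp from the start of Mcm7, held 384 and 127 reads (log2 ratio -1.54). Afmid, 168 bp from Tk1, held 1301 and 463 reads (-1.44). 1700001G17Rik, 57 bp from Prim2, held 136 and 37 reads (-1.81), next to a Prim2 span whose own ratio was above 1 and whose start site is outside its windows, and 1810006K21Rik, 120 bp from Fen1, held 285 and 107 reads (-1.36). The other 6 had higher values: Pxmp2 by Pole -0.65, Vps35 by Orc6 -0.40, Prkdc by Mcm4 -0.30, Gm16039 by Rpa3 -0.24, Smyd4 by Rpa1 -0.03 and 6330408A02Rik by Lig1 0.27. Under the strong-window scaling all 10 are positive, 1700001G17Rik barely so. Signal at such shared promoters cannot be told apart by gene in this table.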

How the data were processed

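DNase I-digested DNA from 1 untreated and 1 IL-6-treated M1 library was sequenced, and the authors aligned trimmed reads to NCBIM37 (mm9) with BWA and summarized them with Seqmonk, with versions not given in the sources used here. Per transcript, the deposited signal is the mean and the SD of reads over 700-bp windows. Windows of this size gave the number listed in each of 55432 rows. The labels place IL-6 treatment at 4 to 5 days, and the sources differ on single or paired reads. The factor of 1.03816 on IL-6 reads is not explained in the sources used here, and products of mean and windows lay within 0.003 of a whole read.

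Coding spans matched GENCODE M1 within 3 bp at both ends in 99.4% of rows. Of 276 stretch sums reached by 2 routes, 0 disagreed. Log2 ratios were taken after adding 0.5 reads. Intervals are exact Clopper-Pearson intervals, and DNase I fragments without molecular identifiers are not independent molecules, so they cover counting error only. With 1 library per condition no test was made. On simulated windows, the reads and the bounds on the strongest untreated window were recovered for all 4269 spans run. No such recovery was recorded for the stretches or for the bounds in the IL-6 library. The genes and lists were chosen with earlier results of these data known. All 37 genes are named by role, with the 3 lowest and 3 highest of the further replication genes, genes that share windows or a start region with them, and marker lists. The analysis had been planned for reads at sites, and the table holds means per span, so reads were recovered from these means. The study's ChIP, 4C and expression experiments are not used here. Python 3.11.15, numpy 2.4.6, pandas 2.3.3 and scipy 1.17.1 were used.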

Additional observations from a re-analysis of the deposited data

How the results depend on the processing

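The result that depends on processing is the direction. Under the strong-window scaling, added after the data were seen, the summed log2 ratio was 1.17, the median 1.04, that of the further replication genes 1.27, a 2-fold lower value was left in 0 genes and a 2-fold higher one was seen in 20, against 0.0767% and 84.8% of all genes tested on that scale. Of the genes at least 2-fold lower on the scale of the table, 11 changed sign, to log2 ratios of 0.69 (Mcm6), 0.64 (Cdt1), 0.65 (Gins2), 0.031 (Pcna), 0.14 (Rfc3), 0.47 (Rfc4), 0.54 (Pold1), 0.36 (Rrm1), 0.35 (Rrm2), 0.81 (Tyms) and 0.56 (Rpa2). The cause was not tested. The summed log2 ratio was -0.71 without scaling and -0.61 with the total over coding spans, both outside its counting interval. At a fold of 1.5, 24 genes were lower and 0 higher, against 23.2% and 10.8% of all genes. For the 15 genes with the start site outside the windows the median was -0.19.

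The other alternatives (medians or trimmed means over genes as the scaling, 5 reads added, other filters, all listed transcripts) kept the direction of the median and left 13 to 15 genes at least 2-fold lower, and 7 genes moved beyond their intervals when the median over all listed transcripts was taken. There Mcm7 was at -1.14 and Orc6 at -1.17, Rpa2 (-0.74) was no longer 2-fold lower and Rfc5 (-1.14) was. Lig1 was at -0.34, Tyms at -1.37 and Gins2 at -1.43. Between 22 and 29 genes were below the median of similar genes under the other ways of matching, with a median percentile of 24.5 when the SD between windows was matched too. No paired analysis was possible because there is 1 library per condition. Windows outside coding spans are not in the table, so a promoter outside a span was not measured.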
